A study of Mus musculus with 18 samples.

Results

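BAFF and APRIL are cytokines of the tumour necrosis factor (TNF) family that keep B cells alive and help them become antibody-secreting cells. Their receptors on B cells are BR3 (also called BAFF-R), TACI and BCMA. BR3 binds BAFF only and drives survival of mature B cells mainly through the noncanonical NF-kB pathway, in which TRAF3 degradation lets the kinase NIK act on the NF-kB2 precursor. TACI and BCMA bind both BAFF and APRIL. TACI is best triggered by multimeric ligand, its signals help class switching, and it also limits B cell numbers. BCMA is known from plasma cells.

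The genes described here are the 5 listed genes of this system, matched by symbol to the Ensembl identifiers of the deposited table: Tnfrsf13b (TACI, ENSMUSG00000010142), Tnfrsf13c (BR3, ENSMUSG00000068105), Tnfrsf17 (BCMA, ENSMUSG00000022496), Tnfsf13b (BAFF, ENSMUSG00000031497) and Tnfsf13 (APRIL, ENSMUSG00000089669). They are 5 of 35275 genes in the table. RNA was sequenced from pan B cells of the spleen of C57BL/6 mice in 18 libraries, 3 in each of 6 groups. Cells were held for 1 h with control antibody or with mBaffR-mFc, a BAFF receptor fusion protein that the series describes as blocking the BR3-binding site of BAFF, each at 1000 ng/ml. They then received no BAFF (groups Ab and BRFc, after control antibody and mBaffR-mFc), 100 ng/ml BAFF 3mer (Ab_3mer and BRFc_3mer) or 100 ng/ml BAFF 60mer (Ab_60mer and BRFc_60mer) for 4 h. The 3mer and 60mer are forms of the ligand with 3 and 60 subunits. The design asks what each form does to B cell transcripts with and without the block, and for these genes it asks whether the receptors and ligands of BAFF themselves respond. The labels do not say whether the libraries of a group came from separate animals or cultures, so p-values measure the spread between these libraries, which may be technical. Replicate numbers here only name the libraries of a group in the order in which the samples are listed, and pair nothing.

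Expression was given as FPKM, a fragment count divided by gene length and by the size of the library. Library sizes, recovered from the steps between low FPKM values, ran from 12.2 M to 25.4 M fragments (median 18.4 M). The B cell label was borne out by the markers: Cd79a, Cd79b, Ms4a1 and Ighm averaged 850.9, 787.5, 180.1 and 2288 FPKM. Summed T cell markers reached 3.16 to 4.89 FPKM, with Cd4 at 0 in 8 libraries, and neutrophil markers 16.3 to 28.9 FPKM, with Ly6g at 0 in 17. Macrophage and monocyte markers summed to 143.0 to 169.3 FPKM, mostly Lyz2 (mean 110.1), with Cd68, Adgre1, Csf1r and Cd14 at means of 13.9, 13.7, 11.7 and 7.94 and C1qb, C1qa and Vcam1 at 0.758, 0.541 and 0.107. Natural killer cell markers summed to 114.3 to 144.2 FPKM, dendritic cell markers to 13.1 to 22.8 and plasma cell markers to 498.5 to 586.6. The 6 connective tissue markers Col1a1, Col1a2, Col3a1, Sparc, Dcn and Bgn split the libraries along group lines, except that Ab_3mer was divided. Their sum was 8.14 to 12.9 FPKM in 8 libraries (replicates 1 and 2 of Ab_3mer, all of Ab_60mer and all of BRFc_60mer) and 0 to 0.131 in the other 10. Every no-BAFF library is on one side of this split and every 60mer library on the other.

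Both receptor genes that the cells expressed in quantity moved after the 60mer, and their promoters are shown here as the reference sequence upstream of the changed transcripts. Tnfrsf13b lies on chr11:61126755-61149372 on the plus strand and Tnfrsf13c on chr15:82221743-82224369 on the minus strand (GENCODE M21, GRCm38; the build behind the deposited values is not given in the sources used here). Each promoter runs from 250 bases before to 50 bases after the start of the gene in RefSeq (GRCm38.p6, read 5′ to 3′ on the strand of the gene), at chr11:61126505-61126804 for Tnfrsf13b and chr15:82224331-82224630 for Tnfrsf13c. Capitals mark every match to a loose NF-kB consensus, GGG and CC with any 5 bases between them, on either strand.
Tnfrsf13b promoter: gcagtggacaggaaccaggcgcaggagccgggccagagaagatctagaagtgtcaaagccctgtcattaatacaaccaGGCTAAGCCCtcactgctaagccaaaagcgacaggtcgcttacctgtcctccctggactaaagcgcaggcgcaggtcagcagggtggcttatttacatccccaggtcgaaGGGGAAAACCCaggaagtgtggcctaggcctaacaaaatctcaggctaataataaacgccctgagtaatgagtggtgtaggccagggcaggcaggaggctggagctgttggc
Tnfrsf13c promoter: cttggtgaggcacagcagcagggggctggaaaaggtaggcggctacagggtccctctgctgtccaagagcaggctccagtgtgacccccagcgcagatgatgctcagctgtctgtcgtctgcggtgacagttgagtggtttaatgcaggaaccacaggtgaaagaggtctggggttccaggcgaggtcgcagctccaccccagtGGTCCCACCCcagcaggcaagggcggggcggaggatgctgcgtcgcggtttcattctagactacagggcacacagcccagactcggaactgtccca
The Tnfrsf13b window held 3 matches, 2 of them overlapping in a single run of capitals, and the Tnfrsf13c window held 1. The same consensus was found in 50.8% of 32851 promoter windows of this length, so a match is common. Neither window held GAGGAA (the core of PU.1 and Spi-B sites, in 28.3% of windows), the octamer ATGCAAAT (1.74%), the E-box CACGTG (7.15%) or TATAAA (13.6%), searched on both strands. All 5 genes had an entry in the RefSeq promoter table.

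The transcripts of TACI and BR3 were abundant in every library, and those of BCMA, BAFF and APRIL were close to 0. Over the 18 libraries Tnfrsf13b averaged 138.7 ± 9.52 FPKM (SD) and Tnfrsf13c 101.8 ± 5.13 FPKM. Tnfsf13b averaged 0.137, Tnfsf13 0.106 and Tnfrsf17 0.0773 FPKM. In fragments, the 18 libraries held 40178 on Tnfrsf13b, 66182 on Tnfrsf13c, 51 on Tnfsf13, 43 on Tnfsf13b and 20 on Tnfrsf17. The order of TACI and BR3 therefore differed between the scales: Tnfrsf13b was higher in FPKM and Tnfrsf13c had more fragments in each of the 18 libraries. Tnfrsf13b and Tnfrsf13c were the only members that passed the filter for testing, an average of 1 FPKM or more over the libraries, which 11646 genes passed.

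The scales differ by the gene length by which fragments were divided. The deposited values of Tnfrsf13b were whole fragments in all 18 libraries with a length of 864 bases, which is the mean of its 7 GENCODE M21 transcripts (364 to 2556 bases, 4 of them coding). Those of Tnfrsf13c were whole with 1945 bases, close to its longest coding transcript of 1983. Divided by the longest coding transcript, 2556 bases, Tnfrsf13b averaged 46.9 FPKM against 99.9 for Tnfrsf13c. Tnfrsf17, with a single transcript, was divided by its 815 bases, and Tnfsf13 by 1455 bases, between its transcripts of 1407 and 1503. For Tnfsf13b, whose 6 transcripts run from 861 to 4771 bases, the smallest length that gave whole fragments was 930, and with 4771 bases its mean was 0.0268 FPKM. The length is the same in every library, so ratios of FPKM between groups do not depend on it. Differences in log2(FPKM + 1) do, for genes as low as Tnfsf13b, since the length sets how much the added 1 weighs.

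**Figure D1:**
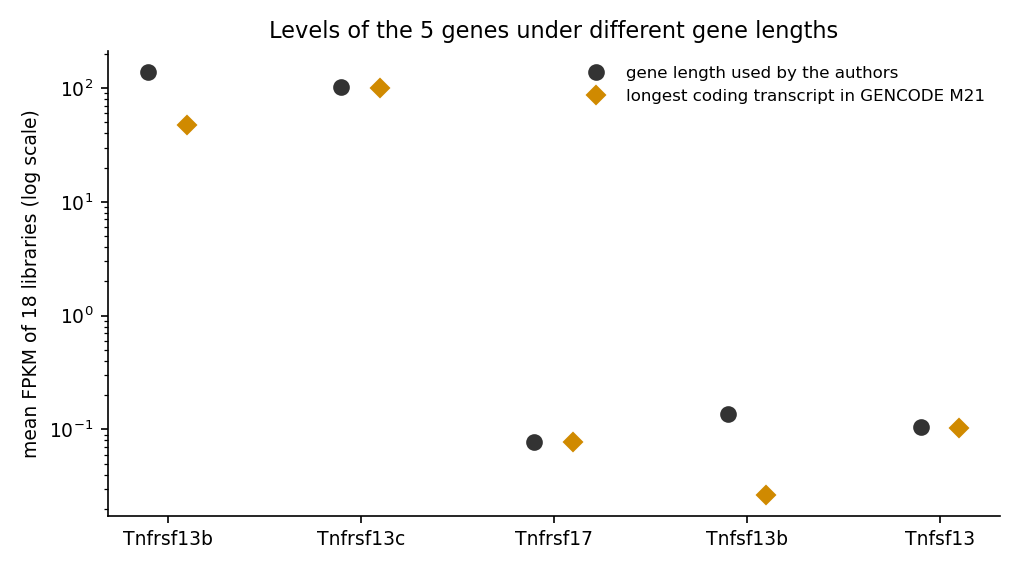
Mean FPKM over the 18 libraries (log scale) of the 5 genes with the gene length used in the deposited values (circles) and with the longest coding transcript of GENCODE M21 (diamonds). Tnfrsf13b drops from 138.7 to 46.9 FPKM and falls below Tnfrsf13c (101.8 and 99.9), while Tnfrsf17, Tnfsf13b and Tnfsf13 stay near or under 0.14 FPKM.

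TACI transcripts were lowest in the libraries that received BAFF 60mer. Tnfrsf13b was at 151.1, 139.3 and 143.8 FPKM in Ab, at 139.4, 140.0 and 143.7 in Ab_3mer, and at 124.1, 125.8 and 127.2 in Ab_60mer. After mBaffR-mFc it was at 147.1, 156.4 and 143.7 FPKM in BRFc, at 147.1, 144.8 and 136.3 in BRFc_3mer, and at 126.9, 131.3 and 128.3 in BRFc_60mer. The 6 libraries with BAFF 60mer, at most 131.3 FPKM, lay below each of the other 12, which were at 136.3 or more. How many of all tested genes separated in this way was not counted. Averaged over pretreatments, 14.3% of them passed as lower with the 60mer than without BAFF (limma). Libraries without BAFF and with the 3mer overlapped under both pretreatments. Within groups the coefficient of variation of Tnfrsf13b was 1.25% to 4.40%, and counting error alone gives 1.90% to 2.48%.

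BR3 transcripts were also lowest with the 60mer, by a smaller margin. Tnfrsf13c was at 102.1, 103.7 and 102.1 FPKM in Ab, at 105.3, 100.6 and 101.0 in Ab_3mer, and at 99.4, 100.3 and 93.8 in Ab_60mer. After mBaffR-mFc it was at 106.9, 102.5 and 105.6 FPKM in BRFc, at 108.8, 109.5 and 106.9 in BRFc_3mer, and at 91.8, 99.6 and 93.0 in BRFc_60mer. The highest library with BAFF 60mer (100.3) and the lowest of the other 12 (100.6) nearly touched. For this order of libraries, too, no share over all tested genes was counted. BRFc_3mer held the highest mean, 108.4 ± 1.34 FPKM (SD, n = 3), above BRFc at 105.0 ± 2.23. Its 3 libraries were the highest of the 18, the lowest of them only just above the highest of BRFc (both 106.9 FPKM when rounded).

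**Figure D2:**
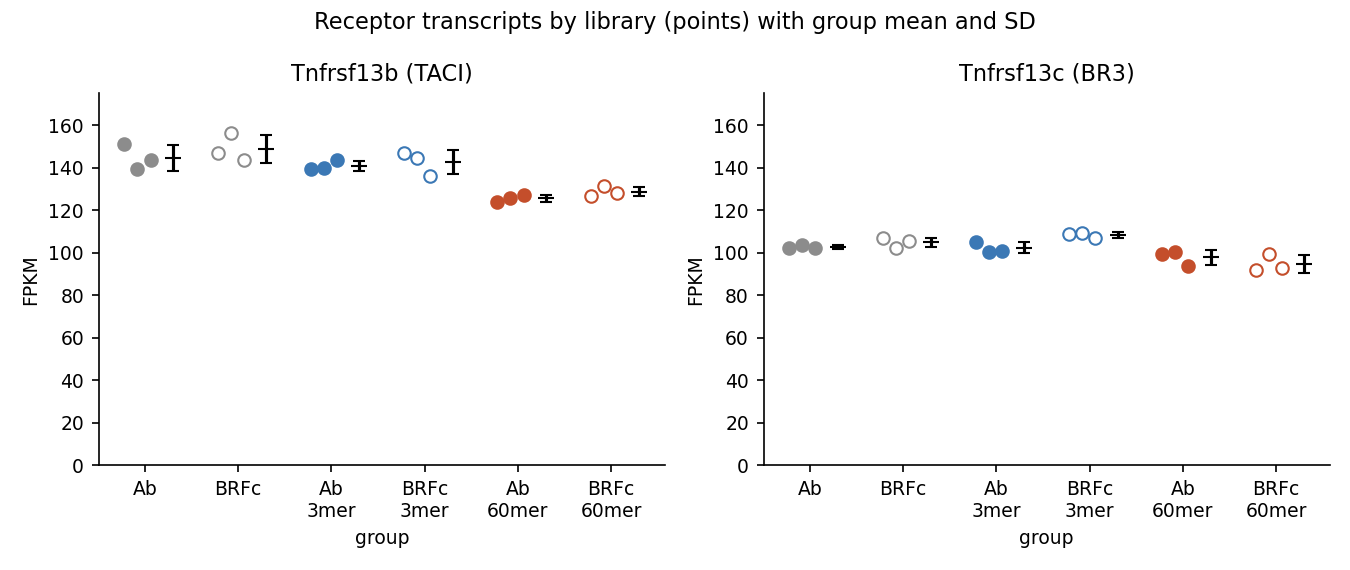
FPKM of Tnfrsf13b and Tnfrsf13c in each library (points; filled, control antibody; open, mBaffR-mFc; grey, no BAFF; blue, BAFF 3mer; orange, BAFF 60mer), with the group mean and SD of 3 libraries beside them. In both panels the 6 orange points are the lowest, at 124.1 to 131.3 FPKM for Tnfrsf13b and 91.8 to 100.3 for Tnfrsf13c.

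Against no BAFF, TACI transcripts were lower in the 60mer libraries under both pretreatments, and BR3 transcripts on average over them. These comparisons also set libraries with connective tissue transcripts against libraries without them. Under control antibody the mean of Tnfrsf13b went from 144.7 ± 5.98 to 125.7 ± 1.57 FPKM (SD, n = 3), 13.1% lower, a difference of -0.20 ± 0.042 on the scale of log2(FPKM + 1) (SE; limma, adjusted p = 0.00524). Under mBaffR-mFc it went from 149.0 ± 6.56 to 128.8 ± 2.29 FPKM, 13.6% lower, a log2 difference of -0.21 ± 0.042 (adjusted p = 0.00735). Tnfrsf13c was 4.67% lower under control antibody, a log2 difference of -0.07 ± 0.039 with a 95% interval of -0.15 to 0.01 that did not pass (adjusted p = 0.248). Under mBaffR-mFc it was 9.71% lower, a log2 difference of -0.15 ± 0.039 that passed (adjusted p = 0.0380). Averaged over the pretreatments, the log2 difference was -0.20 ± 0.029 for Tnfrsf13b (adjusted p = 0.000146) and -0.11 ± 0.027 for Tnfrsf13c (adjusted p = 0.0106). Of all tested genes, 13.98% passed under control antibody, 4.83% under mBaffR-mFc and 22.1% in the average (7.89% higher and 14.3% lower), and the median log2 difference over all of them in the average was -0.02. With FPKM rescaled by the median of ratios, the split of calls in the average moved from 919 higher and 1660 lower to 1315 higher and 1334 lower, and the log2 differences were -0.18 for Tnfrsf13b (adjusted p = 0.000494) and -0.08 for Tnfrsf13c (adjusted p = 0.0427).

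The call of Tnfrsf13c under mBaffR-mFc was lost without BRFc replicate 1, 2 or 3 or BRFc_60mer replicate 1 or 3, each left out in turn (adjusted p between 0.0647 and 0.143). In a fit with a term for libraries that carried connective tissue transcripts, the averaged log2 difference was -0.16 ± 0.070 for Tnfrsf13b (adjusted p = 0.641) and -0.13 ± 0.066 for Tnfrsf13c (adjusted p = 0.724), and 20 genes passed in place of 2579. Between no BAFF and the 60mer these transcripts and the treatment cannot be told apart except through the Ab_3mer libraries.

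Against BAFF 3mer, at the same dose and time, levels of both receptor transcripts were lower in the 60mer libraries. Averaged over the pretreatments, the log2 difference was -0.16 ± 0.029 for Tnfrsf13b (limma, adjusted p = 0.00195) and -0.13 ± 0.027 for Tnfrsf13c (adjusted p = 0.00493), where 14.5% of all tested genes passed (5.90% higher, 8.60% lower). Under control antibody Tnfrsf13b was 10.9% lower (log2 difference -0.16 ± 0.042, adjusted p = 0.0306) and Tnfrsf13c 4.37% lower (-0.06 ± 0.039, 95% interval -0.15 to 0.02, adjusted p = 0.381), with 4.81% of genes passing. Under mBaffR-mFc Tnfrsf13c was 12.5% lower (-0.19 ± 0.039, adjusted p = 0.00787) and passed. Tnfrsf13b was 9.74% lower there (-0.15 ± 0.042, adjusted p = 0.0514) and just missed the threshold, with 5.16% of genes passing. With the connective tissue term both averaged calls were lost, at -0.13 ± 0.052 for Tnfrsf13b (adjusted p = 0.328) and -0.15 ± 0.049 for Tnfrsf13c (adjusted p = 0.217), and 124 genes passed in place of 1689.

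Under control antibody this comparison can be made among libraries that carry connective tissue transcripts, and neither receptor gene passed there. Tnfrsf13b was at 139.4 and 140.0 FPKM in the 2 carrying Ab_3mer libraries and at 124.1 to 127.2 in the 3 of Ab_60mer, with no overlap, a log2 difference of -0.15 ± 0.048 (limma, adjusted p = 0.130). Tnfrsf13c was at 105.3 and 100.6 against 93.8 to 100.3 FPKM, also without overlap, a log2 difference of -0.07 ± 0.045 (adjusted p = 0.489). Of all genes, 2.11% passed in this comparison, and how many had no overlap was not counted. The average over pretreatments with only these Ab_3mer libraries kept passed for both genes, at -0.15 ± 0.032 (adjusted p = 0.00701) and -0.13 ± 0.030 (adjusted p = 0.0100), with 10.7% of genes passing. Its mBaffR-mFc side still sets BRFc_3mer, in which no library carried these transcripts, against BRFc_60mer, in which all 3 did. The call of Tnfrsf13b under control antibody was lost with any 1 of the 6 libraries of Ab_3mer and Ab_60mer left out (adjusted p between 0.0539 and 0.130).

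No change of the receptor transcripts was detected after BAFF 3mer against no BAFF. The averaged log2 difference was -0.05 for Tnfrsf13b (95% interval -0.11 to 0.01) and 0.02 for Tnfrsf13c (-0.04 to 0.08), with adjusted p = 0.958 for both in limma. None of the 11646 genes (0%) passed under control antibody, under mBaffR-mFc or in the average, and voom on the recovered fragments also gave 0, with 632, 388 and 524 genes at an unadjusted p under 0.05 in limma.

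The receptor transcripts did not differ detectably between mBaffR-mFc and control antibody. The averaged log2 difference was 0.03 for Tnfrsf13b (95% interval -0.02 to 0.08) and 0.02 for Tnfrsf13c (-0.02 to 0.07). With BAFF 3mer, Tnfrsf13c was at 108.4 against 102.3 FPKM (log2 difference 0.08, 95% interval 0.001 to 0.16), with an adjusted p of 0.998. Of all genes, 0% passed without BAFF (688 at an unadjusted p under 0.05, and 0 by voom) and with the 3mer (452, and 0 by voom), 0.0258% with the 60mer and 0.00859% in the average.

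Whether mBaffR-mFc altered the response to either ligand was tested as an interaction. For the 60mer it was -0.007 ± 0.059 on the log2 scale for Tnfrsf13b (95% interval -0.13 to 0.12, adjusted p = 0.991) and -0.08 ± 0.055 for Tnfrsf13c (-0.19 to 0.04, adjusted p = 0.922), with 0.00859% of genes passing. For the 3mer it was -0.03 for Tnfrsf13b and 0.05 for Tnfrsf13c, with 0% of genes passing (560 at an unadjusted p under 0.05, 0 by voom). So Tnfrsf13c passed with the 60mer under mBaffR-mFc and not under control antibody, but the difference between those responses did not pass. In the F test over all 6 groups both receptor genes passed (adjusted p = 0.00353 for Tnfrsf13b and 0.0280 for Tnfrsf13c), as did 8.93% of genes.

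**Figure D3:**
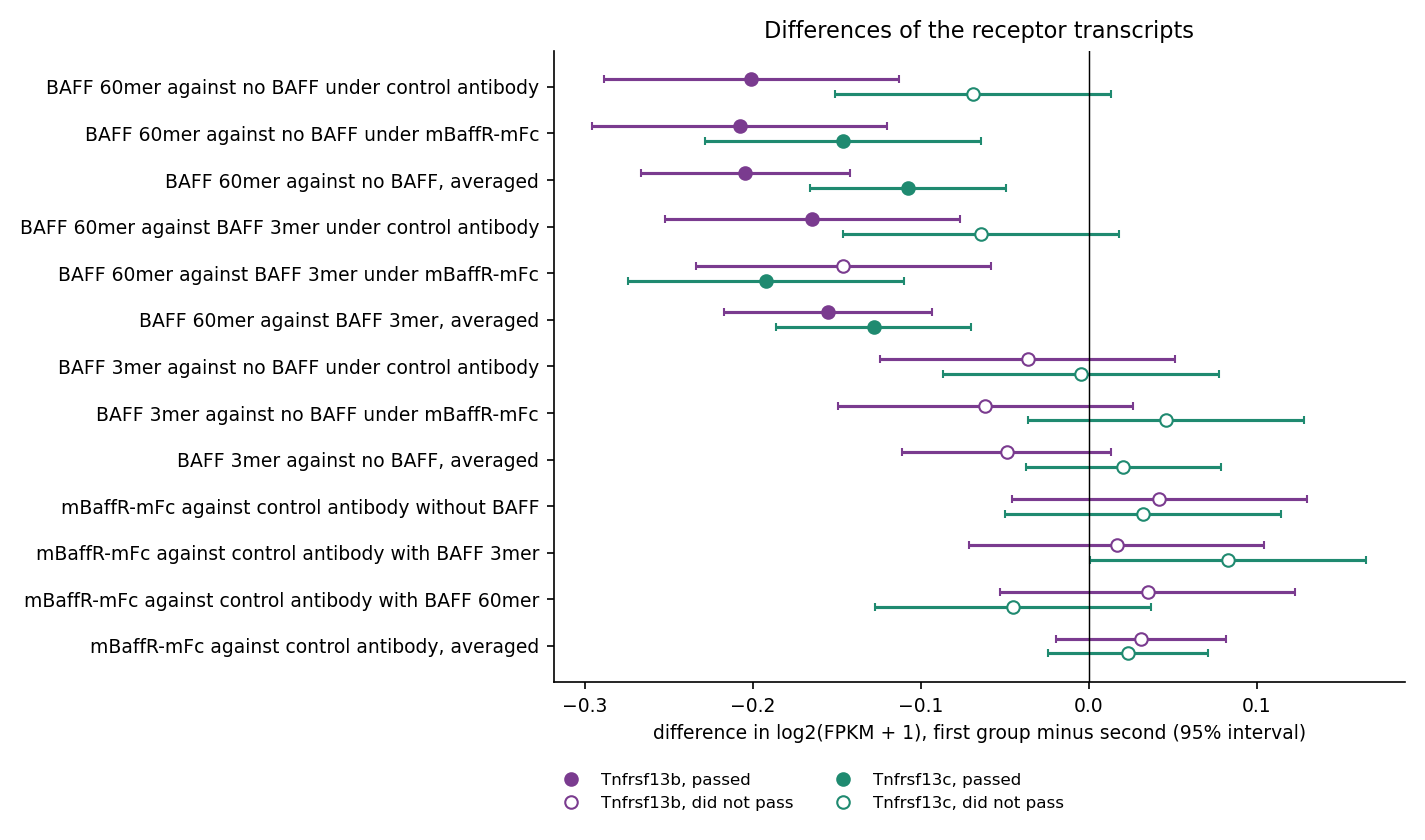
Differences in log2(FPKM + 1) of Tnfrsf13b and Tnfrsf13c with 95% intervals from limma, for each comparison (filled, adjusted p under 0.05; open, not). The 6 comparisons of the 60mer lie left of 0 for both genes, between -0.06 and -0.21, and those of the 3mer with no BAFF and of mBaffR-mFc with control antibody lie between -0.06 and 0.08.

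The ratio of TACI to BR3 transcripts within a library had group means between 0.571 and 0.631. Tnfrsf13b had 0.627 ± 0.030 fragments per Tnfrsf13c fragment in Ab (SD, n = 3), 0.631 ± 0.040 in BRFc, 0.613 ± 0.022 in Ab_3mer, 0.585 ± 0.017 in BRFc_3mer, 0.571 ± 0.027 in Ab_60mer and 0.604 ± 0.016 in BRFc_60mer. The ranges of Ab (0.597 to 0.657) and Ab_60mer (0.554 to 0.603) overlapped. That of BRFc (0.604 to 0.677) lay above those of BRFc_3mer (0.566 to 0.601) and Ab_60mer, and overlapped that of BRFc_60mer (0.586 to 0.614). Over the 18 libraries, on log2(FPKM + 1), the receptor genes had a Pearson r of 0.67 and a Spearman rho of 0.67. These points share groups and library totals.

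The 9650 genes compared with the receptor genes averaged 2 FPKM or more, and members and genes with provisional symbols were left out. Those whose pattern over the 18 libraries was most like Tnfrsf13b were Slc26a11 (r = 0.91), Pik3ip1 (0.90), which encodes an inhibitor of PI3 kinase, and Fcrla (0.90), a B cell protein of the Fc receptor-like family. Fcrla averaged 465.8 and 473.3 FPKM in Ab and BRFc and 361.2 and 363.0 in Ab_60mer and BRFc_60mer. Those most like Tnfrsf13c were Gstm1 (0.88), a glutathione transferase, Armt1 (0.88) and Rhoh (0.86), a small GTPase of blood cells. Rhoh averaged 22.9 and 23.5 FPKM in Ab and BRFc and 19.4 and 19.5 with the 60mer.

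BCMA transcripts were at the edge of detection. Tnfrsf17 (chr16:11313812-11320074, plus strand) had 0 to 4 fragments per library and at least 1 in 14 libraries, for 0.060 fragments per M over all of them (exact Poisson 95% interval 0.037 to 0.093, counting error only). Group sums were 3 fragments in Ab, 3 in BRFc, 2 in Ab_3mer, 5 in BRFc_3mer, 5 in Ab_60mer and 2 in BRFc_60mer, and 4 of the 5 in BRFc_3mer were from a single library. Group depth differed, and per M the sums of Tnfrsf17 were 0.054, 0.046, 0.033, 0.091, 0.112 and 0.037 in the same order. Other plasma cell markers were well above this, with Mzb1 at 217.1, Jchain at 60.2, Sdc1 at 30.5 and Prdm1 at 6.48 FPKM on average.

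The ligand genes were hardly read either. Tnfsf13b (chr8:10006467-10039072, plus strand) had 0 to 6 fragments per library, 0.129 per M over all (95% interval 0.093 to 0.174), and group sums of 8 fragments in Ab, 9 in BRFc, 10 in Ab_3mer, 4 in BRFc_3mer, 8 in Ab_60mer and 4 in BRFc_60mer. Per M the sums of Tnfsf13b were 0.144, 0.139, 0.167, 0.072, 0.179 and 0.075 in the same order. Of its 15 libraries above 0, 14 had an even number of fragments at the length of 930 bases, whose cause was not tested, so these sums are less certain than the FPKM. Summed BAFF transcripts were 26 fragments after control antibody and 17 after mBaffR-mFc. The added BAFF was protein, so it is not read here.

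Tnfsf13 (chr11:69682846-69685784, minus strand) had 0 to 9 fragments per library, 0.153 per M over all (95% interval 0.114 to 0.201), and group sums of 10 fragments in Ab, 16 in BRFc, 4 in Ab_3mer, 5 in BRFc_3mer, 10 in Ab_60mer and 6 in BRFc_60mer. Per M these sums were 0.179, 0.247, 0.067, 0.091, 0.224 and 0.112 in the same order. The APRIL gene lies within the readthrough gene Tnfsfm13 on the same strand (mean 0.0341 FPKM) and the antisense gene Tnfsf13os (0.149 FPKM), and the strand used in counting is not given in the sources used here, so its fragments cannot be assigned with certainty. The TACI gene overlaps only a pseudogene on the opposite strand, Gm12269 (0.306 FPKM).

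None of the 12 comparisons made of these 3 genes reached 0.05 in a two-sided exact permutation test within strata, whose smallest possible p was 0.005 for the comparisons of BAFF forms. The smallest was for Tnfsf13 with BAFF 3mer against no BAFF, 9 fragments against 26 (exact permutation p = 0.055, not adjusted). It was 0.035 without Ab_3mer replicate 1 and 0.010 without BRFc replicate 3, and between 0.010 and 0.16 with each library left out in turn. For Tnfsf13b with mBaffR-mFc against control antibody the exact permutation p was 0.144 (not adjusted), and 0.0465 without Ab replicate 1 and 0.0353 without BRFc replicate 2. With 20 to 51 fragments in all on each gene, no difference was shown for these 3 genes, and none was excluded.

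**Figure D4:**
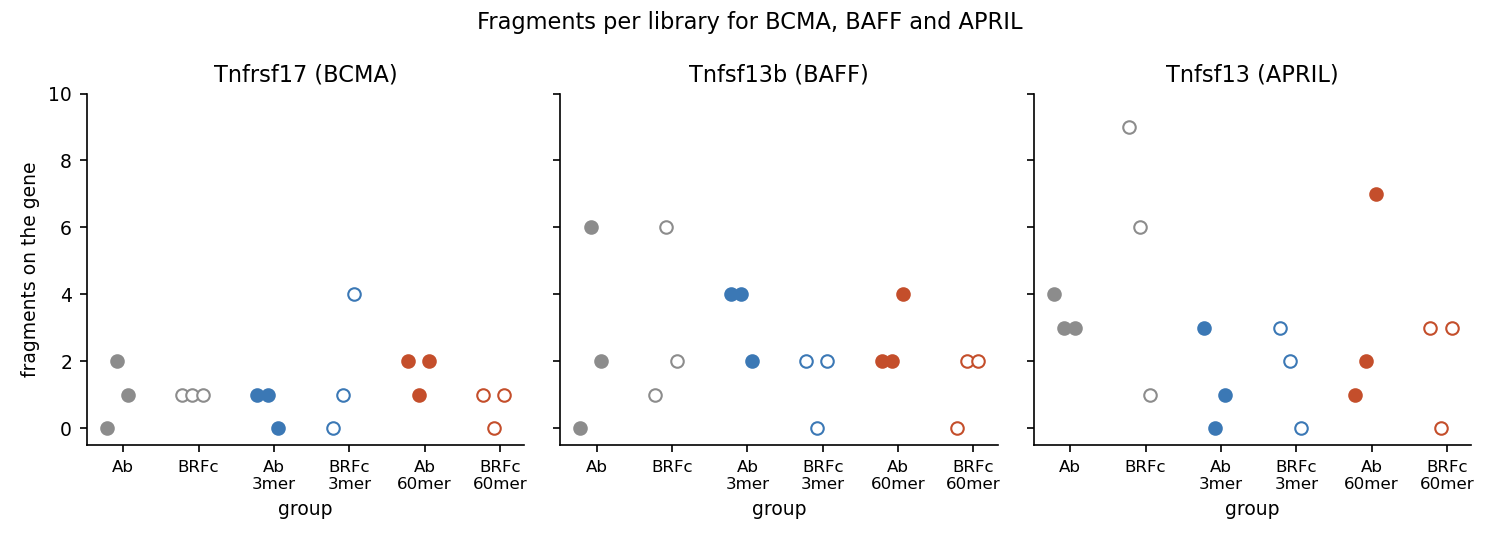
Fragments on Tnfrsf17, Tnfsf13b and Tnfsf13 in each library by group (filled, control antibody; open, mBaffR-mFc; grey, no BAFF; blue, BAFF 3mer; orange, BAFF 60mer). No library holds more than 9 fragments, and the groups overlap in the 3 panels.

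The other genes of the pathway are given for the averaged comparison of BAFF 60mer with no BAFF, in which the 2 tested receptor genes had a median log2 difference of -0.16. In that comparison 22.1% of all tested genes passed (7.89% higher and 14.3% lower). Of 22 adaptors and kinases near the receptors, 4 rose, 4 fell and 14 did not pass (median log2 difference -0.02). Those that rose were Birc3 (0.34 ± 0.025) and Birc2 (0.10 ± 0.031), the ubiquitin ligases that mark NIK for degradation, Traf1 (0.32 ± 0.038) and Traf3 (0.22 ± 0.036), which brings NIK to that complex and binds BR3. Those that fell were Traf5 (-0.35 ± 0.054), Traf3ip3 (-0.23 ± 0.034), the kinase gene Btk (-0.20 ± 0.028) and Camlg (-0.16 ± 0.038), whose product CAML was found as a binding partner of TACI. Birc2, Traf5, Camlg and, below, Tnfrsf9 were named after their values were seen. Map3k14, the gene of NIK, is among those that did not pass.

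Of 9 NF-kB and IkB subunits 4 rose, none fell and 5 did not pass (median 0.14): the inhibitor genes Nfkbie (0.37 ± 0.029) and Nfkbia (0.35 ± 0.042), the noncanonical precursor Nfkb2 (0.33 ± 0.057) and Rel (0.26 ± 0.074). Among all tested genes 7.89% rose and 14.3% fell. With median-of-ratios rescaling 7 of the 9 rose, as did 1315 of the 11646 tested genes. Against BAFF 3mer, Nfkb2 rose by 0.40 ± 0.057, and 5 of the 9 passed as higher, as did 5.90% of all tested genes.

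Of 9 proteases that process or shed these ligands and receptors, Adam17 rose (0.14 ± 0.029), Psen2, a catalytic subunit of gamma-secretase, fell (-0.25 ± 0.039) and 7 did not pass (median -0.06). Adam10, the sheddase of TACI, and Furin, which cleaves BAFF and APRIL, are among the latter. Over all tested genes, 22.1% passed in this comparison (7.89% higher and 14.3% lower). Of 11 genes of heparan sulfate proteoglycans and their synthesis, which bind APRIL and TACI, only Sdc1 passed, as lower (-0.79 ± 0.055), and the median was -0.06. Sdc1 went from 35.7 ± 1.54 to 19.1 ± 0.918 FPKM under control antibody (SD, n = 3).

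Of 16 other TNF receptor genes, Cd40 rose (0.38 ± 0.043), Tnfrsf26 (-0.38 ± 0.041), Tnfrsf14 (-0.30 ± 0.071), Tnfrsf9 (-0.25 ± 0.088) and Tnfrsf12a (-0.18 ± 0.062) fell and 11 did not pass (median -0.06). With median-of-ratios rescaling or voom 2 fell in place of 4. Of 5 other TNF ligand genes Lta rose (0.39 ± 0.074) and 4 did not pass (median 0.03). Over all tested genes, 7.89% rose and 14.3% fell. With voom 1 gene of this ligand list rose and 1 fell. None of the 5 tested neighbours of the member genes passed, among them Snx29 (0.11 ± 0.065) and Cenpm (0.13 ± 0.099). The listed neighbours Tnfsf12 and Tnfsfm13 lay under the filter for testing. Tnfsf12 averaged 0.669 ± 0.311 and 0.716 ± 0.272 FPKM in Ab and BRFc (SD, n = 3). It was at 0.422 ± 0.269 and 0.409 ± 0.081 in Ab_3mer and BRFc_3mer, and 0.310 ± 0.056 and 0.295 ± 0.075 in Ab_60mer and BRFc_60mer. With the connective tissue term, no gene of these lists passed against no BAFF. Between the carrying Ab_3mer libraries and Ab_60mer, 3 adaptors and kinases rose and 1 fell, and 2 of the 9 NF-kB and IkB subunits rose. There 1 heparan sulfate gene fell, 1 other TNF receptor gene rose and 1 fell, and 2.11% of all genes passed. Against BAFF 3mer in the average, with the connective tissue term, 124 of 11646 genes passed. Among them, 1 adaptor or kinase rose and 1 fell, and 2 NF-kB and IkB subunits rose. Also, 1 heparan sulfate gene fell, and 1 other TNF receptor gene rose and 1 fell.

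Markers of cell types moved as follows in the same comparison, and their part in the receptor differences was not tested. In it 7.89% of all tested genes rose and 14.3% fell. Of 9 B cell markers Fcer2a (0.43 ± 0.028) and Cr2 (0.25 ± 0.032) rose, and Cd22 (-0.22 ± 0.030), Pax5 (-0.13 ± 0.042) and Cd79a (-0.12 ± 0.041) fell. With median-of-ratios rescaling 1 fell in place of 3. Of 6 natural killer cell markers 3 fell, among them Il2rb (-0.26 ± 0.038). Of 6 plasma cell markers 1, Sdc1, fell, of 5 macrophage and monocyte markers 1, Cd14, fell (-0.27 ± 0.061), and of 3 dendritic cell markers 1, Zbtb46, rose (0.64 ± 0.066). No tested T cell marker (2) or neutrophil marker (3) passed, and Col3a1, the 1 connective tissue marker tested, rose. With the connective tissue term, 1 B cell marker still passed, as higher, and no marker of the other types did. The macrophage markers C1qa and C1qb lay under the filter for testing. C1qa averaged 0.234 and 0.0299 FPKM in Ab and BRFc, 0.807 and 0.188 in Ab_3mer and BRFc_3mer, and 0.758 and 1.23 in Ab_60mer and BRFc_60mer. C1qb averaged 0.395 and 0.419, 1.13 and 0.303, and 1.35 and 0.950 FPKM in the same order, and without the filter 2 of the 8 macrophage and monocyte markers passed as higher with the 60mer. In bulk RNA fewer cells of a type and less RNA per cell cannot be told apart.

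**Figure D5:**
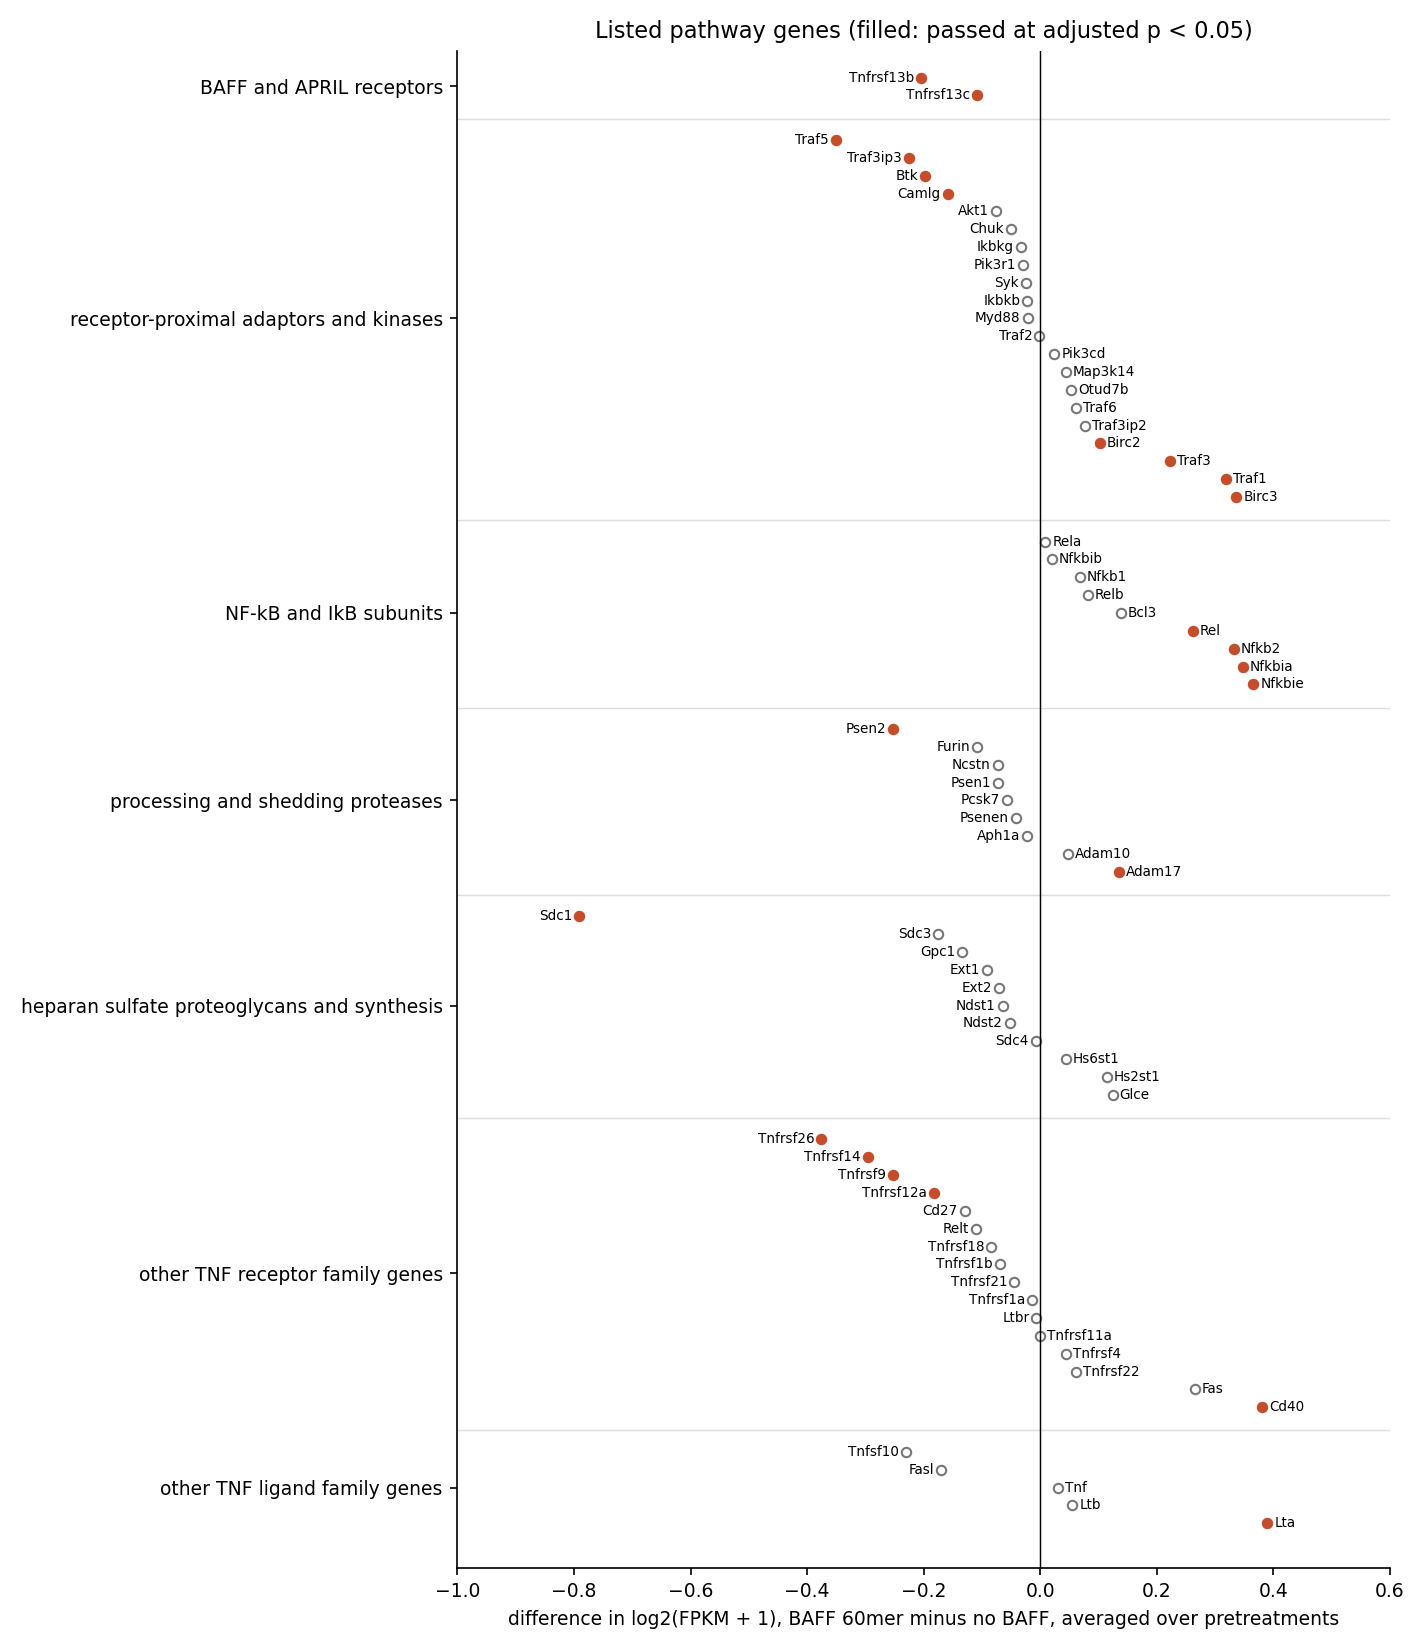
Differences in log2(FPKM + 1), BAFF 60mer minus no BAFF averaged over pretreatments, of the listed genes by role (filled, adjusted p under 0.05 in limma; open, not). Tnfrsf13b and Tnfrsf13c lie left of 0, the 9 NF-kB and IkB genes lie right of it, and Sdc1 has the lowest value, -0.79.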

How the data were processed

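Per the labels' protocols, a sequencing company determined expression in FPKM, and the authors deposited a single table of FPKM per Ensembl gene. The aligner, genome build, counting strand and scaling between libraries are not given in the sources used here. No column of values was left out (0). Of 35275 genes, 34490 matched GENCODE M21 (GRCm38), the source of symbols, positions and transcript lengths. Library totals were recovered from single-transcript genes, of which 90.1% to 91.6% gave the same whole total in a library. With these totals and 1 whole gene length each, all 11646 tested genes came out as whole fragments (tolerance 0.002). No libraries held identical values. Counting intervals are exact Poisson (95%).

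Genes averaging 1 FPKM or more (11646) entered limma 3.58.1, run in R 4.3.3, on log2(FPKM + 1), with pseudocount 1, a variance trend and Benjamini-Hochberg adjustment over all genes (threshold 0.05). Fold changes on this scale understate those of low genes. Members under the filter had exact permutation tests of mean log2(FPKM + 1) within strata of the other factor. The members, gene lists (161 genes, 160 found; 1 of them is counted but not reported here by name, nor drawn) and markers were chosen with earlier results of these data known. Named genes were the 5 members, up to 4 passing genes of each list by adjusted p in a comparison where a receptor gene passed (2 where none passed), and the 3 genes most correlated with each tested member among those compared. Further genes were named outside this rule, among them Map3k14, Adam10, Furin, Tnfsf12, C1qa and C1qb, and so were more than 4 B cell markers. Alternatives were other pseudocounts and filters, median-of-ratios rescaling, quality weights, fewer groups in the fit, each library left out, a connective tissue term, the carrying Ab_3mer libraries only and, added after seeing the data, voom on the recovered fragments. The test was checked on simulated data. Plots were made by matplotlib 3.10.9 (Python 3.11.15).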

Additional observations from a re-analysis of the deposited data

How the results depend on the processing

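The 9 log2 differences of the receptor genes that passed in limma kept their direction under every alternative run. With the connective tissue term these and both F tests lost their calls: for BAFF 60mer against no BAFF, Tnfrsf13b was at -0.16 under control antibody, -0.17 under mBaffR-mFc and -0.16 averaged, and Tnfrsf13c at -0.17 under mBaffR-mFc and -0.13 averaged. Against the 3mer, Tnfrsf13b was at -0.15 under control antibody and -0.13 averaged, and Tnfrsf13c at -0.22 under mBaffR-mFc and -0.15 averaged. The F test then gave adjusted p = 0.647 and 0.668. Also lost were Tnfrsf13b at -0.15 against only the carrying Ab_3mer libraries, and, with only the compared groups fitted, Tnfrsf13b at -0.21 (60mer against none, mBaffR-mFc) and -0.16 (60mer against 3mer, control antibody) and Tnfrsf13c at -0.15 and -0.19 (both under mBaffR-mFc). Median-of-ratios rescaling took Tnfrsf13c to -0.12 (60mer against none, mBaffR-mFc) and its F test to adjusted p = 0.0651, and quality weights took the former to -0.10. For the loss of these calls the cause was not tested. Leaving out each library gave -0.18 to -0.12 for that Tnfrsf13c result, -0.17 to -0.15 for Tnfrsf13b against the 3mer under control antibody, and adjusted p = 0.0178 to 0.0754 for the F test of Tnfrsf13c, which was lost without BRFc_3mer replicate 1 or 2 or BRFc_60mer replicate 1 or 3. Tnfrsf13b against the 3mer under mBaffR-mFc passed at -0.15 with a minimum mean of 5 FPKM (adjusted p = 0.0447) and at -0.14 with quality weights (adjusted p = 0.0223).

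Changes of sign were all in results that did not pass. Tnfrsf13c with the 3mer under control antibody was at 0.012 with rescaling, Tnfrsf13b with mBaffR-mFc on the 3mer at -0.010 with the connective tissue term, and Tnfsf13 with mBaffR-mFc at -0.042 with pseudocount 0.1. With each library left out these 3 ran from -0.025 to 0.0070, -0.0054 to 0.049 and -0.028 to 0.035. Likewise with each library left out, the interactions of Tnfrsf13b ran from -0.038 to 0.028 (60mer) and -0.057 to 0.0096 (3mer). Tnfrsf17 ran from -0.016 to 0.072 (60mer against 3mer), -0.031 to 0.057 (3mer against none) and -0.049 to 0.0097 (mBaffR-mFc), and with pseudocount 0.1 it was at 0.18, 0.033 and -0.11. Tnfsf13b ran from -0.060 to 0.035 (60mer against none), -0.022 to 0.031 (60mer against 3mer) and -0.064 to 0.031 (3mer against none). Over all genes, 60mer against none passed 1628, 563 and 2579 (control antibody, mBaffR-mFc, averaged) and 16, 10 and 20 with the connective tissue term. Against the 3mer 560, 601 and 1689 became 246, 15 and 124. With only the compared groups fitted, 1628, 563, 560 and 601 became 1053, 139, 252 and 287, and with quality weights 563 and 601 became 1386 and 1318. The F test passed 1040 genes, 50 with the term and 1942 with quality weights. With each library left out the 6 counts ran from 756 to 1668, 242 to 731, 1982 to 2933, 246 to 471, 233 to 543 and 1162 to 1829. Voom gave 1579, 712, 2651, 558, 609 and 1727. No paired analysis was possible because the labels give no replicate numbers and those used here follow the order of the samples. The 3 low genes had 20 to 51 fragments each over all libraries. With each library left out, Tnfsf13 with the 3mer against none ran from -0.18 to -0.086 and Tnfsf13b with mBaffR-mFc from -0.12 to -0.058, and with pseudocount 0.1 they were at -0.70 and -0.46.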
